A study of Mus musculus with 9 samples.

Results

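The miR-125 and miR-99/100 families were examined in primary mouse hippocampal neurons that had been left untreated or treated with NMDA or bicuculline. The members were found by their exact names on the array, mmu-miR-125a-5p, mmu-miR-125a-3p, mmu-miR-125b-5p, mmu-miR-99a, mmu-miR-99b and mmu-miR-100, which are 6 of the 650 miRNAs measured. The species prefix is left out from here on. Neurons came from the hippocampi of C57BL/6 mice at postnatal day 1 and were kept in culture for 10 days. Per the labels, control cultures received no drug, NMDA cultures received 20 µM NMDA for 4 h and bicuculline cultures received 50 µM bicuculline for 4 h, with 3 arrays in each group and 9 in all. The methods instead describe a brief NMDA exposure that was washed out, with RNA collected later, and give a range of NMDA concentrations. NMDA opens NMDA-type glutamate receptors both at and outside synapses, whereas bicuculline blocks GABA-A receptors and so raises synaptic firing. The comparisons ask which miRNAs respond to the toxic stimulus and which to the synaptic one. The methods give independent cell preparations for the replicates. RNA was taken from whole dishes, so that fewer cells of a type and less RNA per cell cannot be told apart.

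MicroRNAs are short RNAs that guide Argonaute proteins to messenger RNAs, mainly through the seed, the stretch of bases 2 to 8. miR-125 is the vertebrate relative of lin-4, the founding miRNA of the worm, and is abundant in brain, where miR-125b acts on dendritic spines and synaptic transmission. miR-99 and miR-100 belong to one of the oldest animal miRNA families and are known for targeting the mTOR kinase. In mammals both families lie in the same genomic clusters as let-7 genes, and the hairpins of a cluster can be cut from shared primary transcripts.

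The mature sequences are shown because the 2 families are defined by them and because some members differ by so few bases that array probes may not separate them. All 6 names matched a RefSeq entry of the mouse assembly GRCm38.p6. Sequences are written 5′ to 3′ with the seed in capitals.
miR-125a-5p: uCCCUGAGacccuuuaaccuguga
miR-125b-5p: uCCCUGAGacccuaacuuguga
miR-99a: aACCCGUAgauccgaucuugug
miR-99b: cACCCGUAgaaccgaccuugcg
miR-100: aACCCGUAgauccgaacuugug
miR-125a-3p: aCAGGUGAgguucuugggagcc

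miR-125a-5p and miR-125b-5p share the seed CCCUGAG, which 5 of 1679 mature mouse names carry. The pair is the same over its first 13 bases and is separated by an edit distance of 3. miR-99a, miR-99b and miR-100 share the seed ACCCGUA, and no other mature name of the table has it, giving 3 of 1679. Counted from the 5′ end of miR-99a, miR-100 differs by the single substitution U16A, while miR-99b differs by A1C, U11A, U16C and U21C. miR-125a-3p comes from the other arm of the miR-125a hairpin and has a seed of its own, CAGGUGA, which 1 of 1679 names carries. Probe sequences were not used here, and the extent to which RNA of one member binds the probes of another was not tested.

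All mature sequences of the members lie on plus strands of GRCm38.p6. miR-99b (chr17:17830194-17830215) and miR-125a-5p (chr17:17830817-17830840) flank let-7e in a cluster whose hairpins span 692 bp. miR-99a (chr16:77598940-77598961) and the Mir125b-2 copy of miR-125b-5p (chr16:77646279-77646300) flank let-7c over 47408 bp. miR-100 (chr9:41531437-41531458) and the Mir125b-1 copy of miR-125b-5p (chr9:41581940-41581961) flank let-7a over 50578 bp. In each of the 3 clusters the order is a miR-99/100 hairpin, a let-7 hairpin and a miR-125 hairpin. Mature miR-125b-5p is the same from both of its genes, so the array measured their sum, and let-7a and let-7c also have copies elsewhere in the genome.

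**Figure D1:**
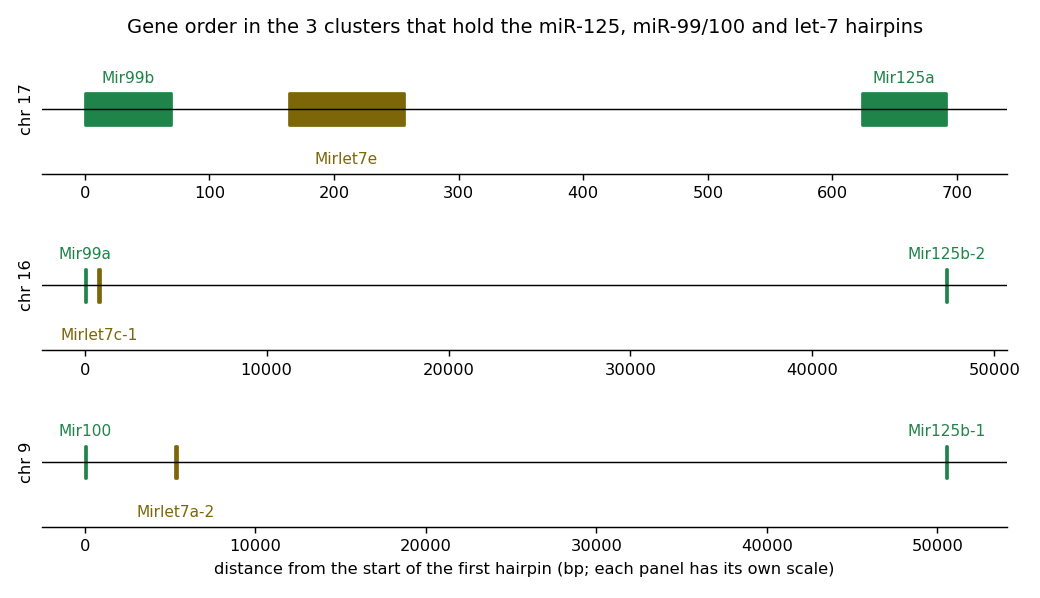
Order and distance of the hairpins in the 3 clusters, with the distance from the start of the first hairpin in bp on the x axis and a separate scale in each panel. Boxes are hairpins, green for miR-125 and miR-99/100 and brown for let-7. The chromosome 17 cluster spans 692 bp, against 47408 bp on chromosome 16 and 50578 bp on chromosome 9.

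On these one-colour Agilent arrays, labelled small RNA binds short probes that are each printed as several spots, and spot brightness reports the amount bound. Signals are given as a percentage of the array's scale, which is the 75th percentile of the probes well above background on every array. Where a miRNA had several probes, the brightest was used. Between 162 and 221 miRNAs per array were well above background, and 156 were so on all 9 arrays. The scanner marked 0 spots as saturated. The arrays lay on 2 slides, slide 1 with 5 arrays (control 1 and 2, NMDA 1 and 2, bicuculline 1) and slide 2 with 4 (control 3, NMDA 3, bicuculline 2 and 3). The neuronal markers miR-124, miR-9, miR-128, miR-138 and miR-218 were well above background on all 9 arrays, 5 of 5, with summed signals of 3406 to 3432% in control, 3151 to 3379% in NMDA and 3106 to 3385% in bicuculline. Of other cell types, the oligodendrocyte marker miR-338-3p was detected on 9 arrays and miR-219 on 0. The immune markers miR-223, miR-142-3p, miR-142-5p and miR-155 were detected on 0 arrays and miR-146a on 8, and the endothelial miR-126-3p was detected on 5 and miR-126-5p on 0. The muscle marker miR-1 was detected on 9 arrays at 12.4 to 15.3% of scale, and miR-133a and miR-206, the erythroid miR-451 and miR-144 and the liver miRNA miR-122 on 0.

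Of the 6 members, 5 were well above background on all 9 arrays, namely miR-125a-5p, miR-125b-5p, miR-99a, miR-99b and miR-100. miR-125a-3p was above background on 0 of 9 arrays. Its signal was 2.15, 3.02 and 3.91% of scale in control, 2.96, 5.30 and 5.36% in NMDA and 1.60, 2.61 and 3.29% in bicuculline. All of these lie under the floor of 7.94% to which low signals were raised, so no order is read from them and no fold change was computed. The other strands of the remaining hairpins that could be looked up, miR-125b*, miR-125b-3p and miR-99b*, were also above background on 0 of 9 arrays. The same held for miR-351, which carries the miR-125 seed, and for miR-10a and miR-10b, which resemble miR-99/100 but have a different seed, ACCCUGU.

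miR-125b-5p, the member studied most at synapses, had signals of 3353, 3512 and 3586% of scale in control cultures, 3284, 3346 and 3866% after NMDA and 3214, 3375 and 3539% after bicuculline. The 3 groups overlapped, and the single highest array was NMDA replicate 3. Group means were 3483 ± 119% in control, 3498 ± 319% after NMDA and 3376 ± 162% after bicuculline (SD, n = 3). By limma, which was fitted to all miRNAs tested, the log2 fold change was 0.0028 for NMDA (SE 0.091, 95% interval -0.21 to 0.22, adjusted p = 0.993) and -0.046 for bicuculline (SE 0.085, -0.24 to 0.15, adjusted p = 0.999). Neither passed the adjusted threshold of 0.05. Within slide 1 and slide 2 the NMDA change was -0.050 and 0.11, and the bicuculline change -0.094 and -0.053.

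miR-125a-5p, which has the same seed and comes from the compact chromosome 17 cluster, gave 192, 223 and 192% in control, 204, 201 and 184% after NMDA and 207, 151 and 219% after bicuculline. The lowest array and the second highest were both bicuculline replicates. The means of 202 ± 17.8%, 196 ± 10.7% and 193 ± 36.2% (SD, n = 3) stood in the order control, NMDA, bicuculline from the highest, with no neighbours in that order differing beyond their spread. The limma log2 fold change was -0.043 for NMDA (SE 0.094, 95% interval -0.26 to 0.18, adjusted p = 0.991) and -0.086 for bicuculline (SE 0.150, -0.43 to 0.26, adjusted p = 0.999). The bicuculline interval was the widest of any member in the comparisons with control. Without bicuculline replicate 2 the change was 0.078, a reversal of sign. Within slide 1 and slide 2 the values were -0.034 and -0.061 for NMDA and -0.0011 and -0.073 for bicuculline.

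miR-99a, the miR-99/100 member on chromosome 16, gave 303, 324 and 319% in control, 311, 333 and 342% after NMDA and 300.1, 351 and 333% after bicuculline. Its 9 values kept within a 1.17-fold range, the narrowest among the members. The means were 315 ± 10.8% in control, 328 ± 15.99% after NMDA and 328 ± 26.03% after bicuculline (SD, n = 3). The log2 fold change by limma was 0.057 for NMDA (SE 0.079, 95% interval -0.13 to 0.24, adjusted p = 0.991) and 0.054 for bicuculline (SE 0.093, -0.16 to 0.27, adjusted p = 0.999). For NMDA it was 0.036 within slide 1 and 0.098 within slide 2, whereas for bicuculline the slides differed in sign, with -0.063 and 0.099.

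miR-100, a near copy of miR-99a, gave 97.8, 106 and 86.6% in control, 100.5, 111 and 93.2% after NMDA and 97, 100 and 82.4% after bicuculline. The lowest array of each group lay on slide 2, at control 3, NMDA 3 and bicuculline 3. The means were highest after NMDA at 102 ± 9.14%, then 96.6 ± 9.55% in control and 93.1 ± 9.43% after bicuculline (SD, n = 3), with each step smaller than the SD. The limma log2 fold change was 0.074 for NMDA (SE 0.108, 95% interval -0.18 to 0.33, adjusted p = 0.991) and -0.054 for bicuculline (SE 0.115, -0.32 to 0.21, adjusted p = 0.999). Within the slides NMDA gave 0.058 and 0.11, and bicuculline -0.067 and 0.068.

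miR-99b, cut from the chromosome 17 cluster with miR-125a, gave 35.1, 39.7 and 33.7% in control, 33.1, 37.5 and 33.9% after NMDA and 34.7, 33 and 33.2% after bicuculline. Replicate 2 was highest in control and NMDA but lowest in bicuculline. The means were 36.2 ± 3.11%, 34.8 ± 2.32% and 33.6 ± 0.913% (SD, n = 3). The limma log2 fold change was -0.053 for NMDA (SE 0.096, 95% interval -0.28 to 0.17, adjusted p = 0.991) and -0.10 for bicuculline (SE 0.094, -0.32 to 0.11, adjusted p = 0.999). Slide 1 and slide 2 alone gave -0.082 and 0.0072 for NMDA, and -0.11 and -0.026 for bicuculline.

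**Figure D2:**
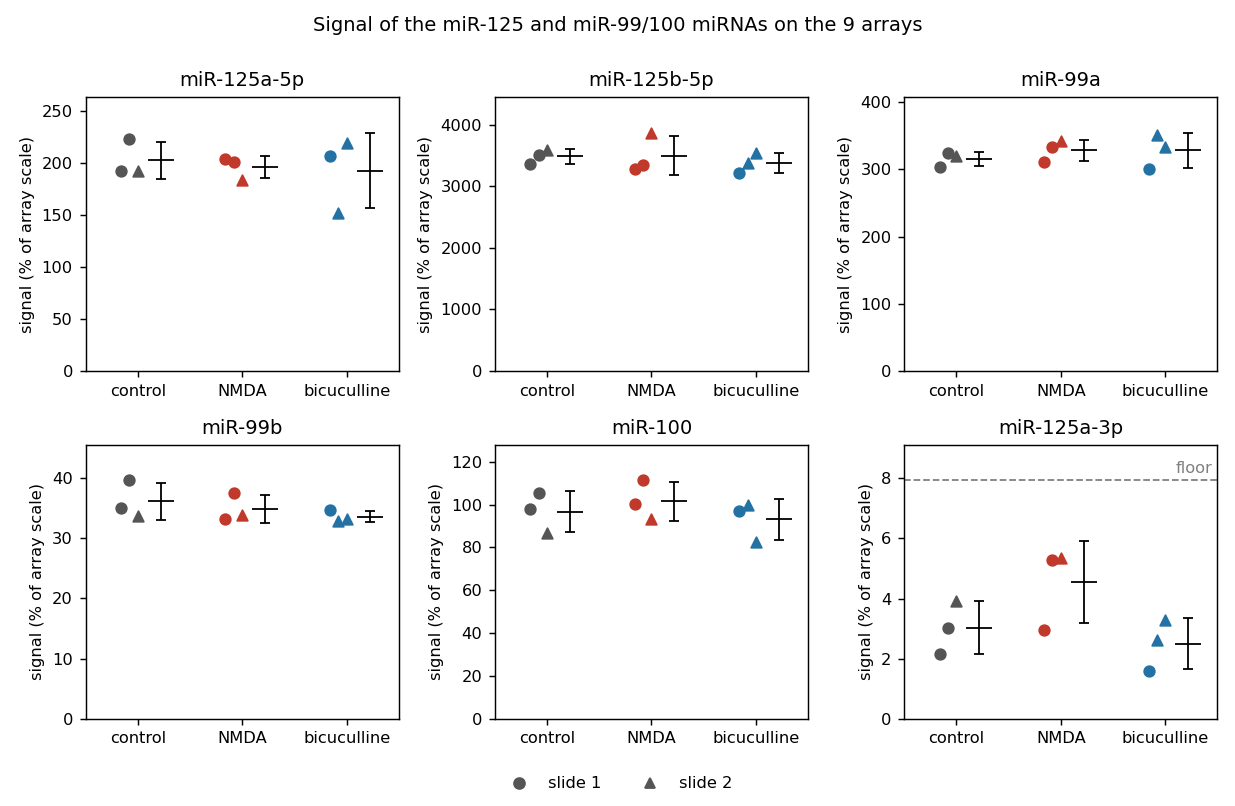
Signal of the 6 members on each array, in % of the array scale, with a y axis of its own in each panel. Circles are arrays of slide 1 and triangles arrays of slide 2, the horizontal bar is the group mean and the whiskers are 1 SD (n = 3). The groups overlap for all 5 detected members, and all values of miR-125a-3p lie under the floor of 7.94%.

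For NMDA against control, 0 of the 5 members tested passed limma's adjusted threshold and 0 had an unadjusted p under 0.05, where 8.29% of the 181 miRNAs tested passed the former and 11.0% the latter. The calls over all miRNAs were all increases. Among the 156 that were detected on every array, to which the 5 members belong, 3 were called (1.92%). The groups were separated for 0 of 5 members, against 9.39% of all miRNAs that lay wholly higher and 5.52% wholly lower. Of the members, 3 had a positive and 2 a negative log2 fold change, although without scaling miR-125a-5p and miR-99b turned positive and under median scaling miR-125b-5p turned negative. The median was 0.0028 beside -0.011 over all miRNAs tested. The smallest unadjusted limma p among them was 0.495, for miR-99a.

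For bicuculline against control, 0 of 5 members passed by limma, beside 0.621% of the 161 miRNAs tested, which is a single miRNA, and beside 0% of the 156 detected on all 9 arrays. At an unadjusted p under 0.05 there were 0 of 5 members and 1.24% of all. Of the 5, 4 had a negative log2 fold change and miR-99a a positive one, whereas with the scanner's total gene signal all 5 were positive and without scaling all 5 were negative. Those settings moved the median of all miRNAs as well, to 0.13 and -0.17. The median was -0.054 beside -0.020 over all tested. Groups were separated for 0 of 5 members, where 1.24% of all miRNAs lay wholly higher and 1.86% wholly lower.

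The treatments were also set against each other. For NMDA against bicuculline, 0 of 5 members passed by limma beside 8.84% of 181 miRNAs and 1.92% of the 156 detected on all 9 arrays, and 0 of 5 had an unadjusted p under 0.05 beside 13.3%. All 5 log2 fold changes were positive with the scale used here, but all 5 were negative with the total gene signal and 4 of 5 under median scaling, where the medians of all miRNAs were -0.095 and -0.086. They had a median of 0.049 beside 0.0018 over all miRNAs, and ranged from 0.0023 for miR-99a to 0.13 for miR-100 (SE 0.111, 95% interval -0.13 to 0.39). By direction, 8.29% of all miRNAs passed as higher after NMDA and 0.552% as lower. The groups overlapped for 5 of 5 members, where 11.0% of all miRNAs lay wholly higher and 2.21% wholly lower. As each pair of comparisons shares an array group, the 3 sets of values are not independent of each other.

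The intervals set the size of change that the arrays could have missed in the fit without covariates. For NMDA and control, whose same-numbered arrays deviated together, they include the spread between pairs. Intervals with the replicate number as a block are not given here. For miR-100 after NMDA the unadjusted limma p was 0.512 without that block and 0.136 with it. The 95% interval stayed within 1.2-fold up or down for 3 of 5 members after NMDA (miR-125a-5p, miR-125b-5p and miR-99a), beside 28.2% of all miRNAs tested. After bicuculline it did so for miR-125b-5p alone, 1 of 5 beside 26.1%, and for NMDA against bicuculline for miR-99a and miR-99b, 2 of 5 beside 30.4%. The widest intervals of a member were 0.825- to 1.13-fold for miR-99b and 0.884- to 1.25-fold for miR-100 after NMDA, and 0.741- to 1.197-fold for miR-125a-5p after bicuculline. For NMDA against bicuculline the widest was that of miR-125a-5p, at 0.810- to 1.31-fold. Failure to pass the threshold therefore does not show that levels were equal. For reference, miR-212, an activity-induced miRNA, rose 3.96-fold after bicuculline in the same fit (95% interval 2.48- to 6.32-fold, limma adjusted p = 0.0228). Control 1 did not detect it and lay under the floor at 7.59% of scale, while the other 2 control arrays did. miR-212 thus entered this test only through the bicuculline group, where it was high, and its fold rests in part on a floored value. For bicuculline, 0 miRNAs were called in 8 of the 21 alternatives. The partner of miR-212, miR-132, was 1.56-fold higher (1.196- to 2.03-fold) with separated groups but a limma adjusted p of 0.386.

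**Figure D3:**
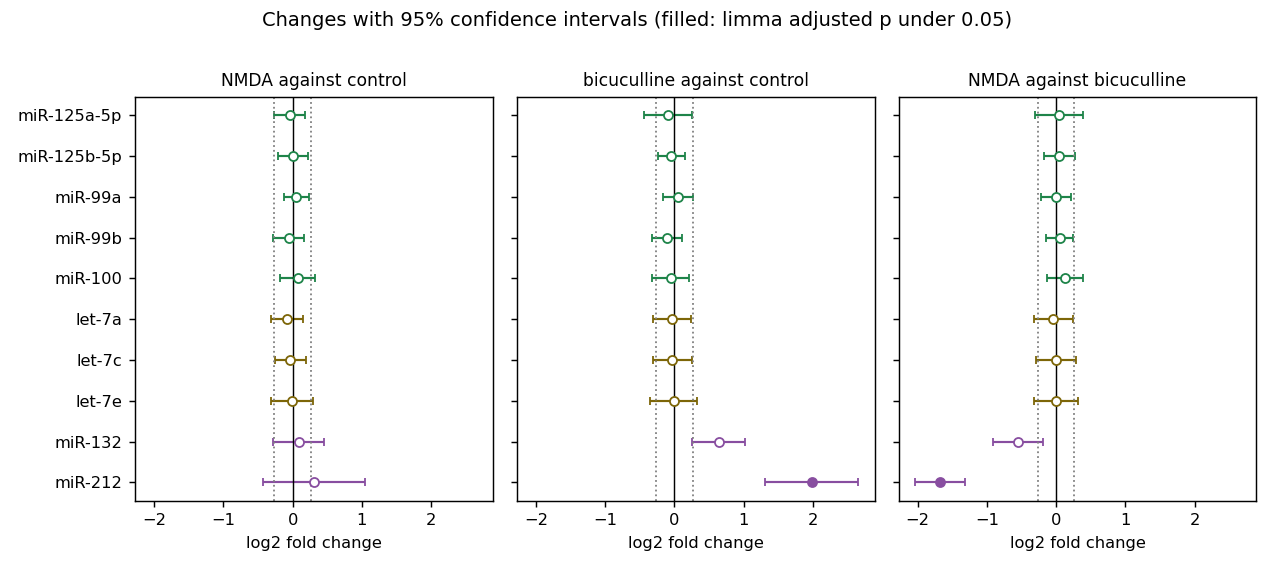
Log2 fold change with its 95% confidence interval for the 5 detected members (green), the let-7 miRNAs of the same clusters (brown) and miR-132 and miR-212 (purple), with 1 panel per comparison. Dotted lines mark 1.2-fold changes and filled points passed limma's adjusted threshold. All member intervals include 0, whereas miR-212 passes after bicuculline.

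The let-7 neighbours were set beside the members. let-7e of the chromosome 17 cluster had a log2 fold change of -0.0082 after NMDA and -0.0094 after bicuculline. let-7c had -0.030 and -0.027, and let-7a had -0.079 and -0.036, none passing by limma. Ratios of 2 miRNAs on the same array do not depend on the scaling of that array and show only unequal change. Of 12 such ratios within and between the clusters, 11 had both miRNAs above the floor, giving 33 comparisons between groups. The groups overlapped in all but 1 of these, and the median size of a difference was 0.047 on the log2 scale.

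The exception was miR-99a over miR-125b-5p, whose log2 ratio was -3.46 ± 0.025 in control and -3.36 ± 0.088 after bicuculline (SD, n = 3). The difference of 0.10 gave a two-sided exact permutation p of 0.1, the smallest that 3 against 3 arrays allow, and 1 after Benjamini-Hochberg adjustment over the family. Within slide 1 it was 0.032 and within slide 2 it was 0.15, and without bicuculline replicate 2 it was 0.050. The ratio of the 2 chromosome 17 members, miR-99b over miR-125a-5p, differed from control by -0.0093 after NMDA and -0.016 after bicuculline (exact permutation p = 1 for both). For the 2 seed partners, miR-125b-5p over miR-125a-5p differed by 0.046 and 0.040 (exact permutation p = 0.8 and 0.9). The largest difference was in miR-100 over let-7a, 0.17 higher after NMDA than after bicuculline (exact permutation p = 0.6). In the log2 table that the authors deposited, that difference was -0.12 (exact permutation p = 0.2).

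The same-numbered arrays of NMDA and control deviated together and lay on 1 slide per pair, so the differences were also read within the 3 pairs. miR-100 over let-7a was higher after NMDA by 0.13, 0.16 and 0.17 on the log2 scale in pairs 1, 2 and 3. miR-99a over miR-99b was higher by 0.12, 0.12 and 0.090, and miR-99a over let-7c by 0.077, 0.075 and 0.11. The means of these differences were 0.15 ± 0.023, 0.11 ± 0.016 and 0.087 ± 0.019 (SD, n = 3 pairs). The 3 ratios are shown because they kept their sign, so a mean large beside its spread follows in part from that choice. Of 11 ratios, these 3 were higher in all pairs and miR-99a over miR-100 was lower in all pairs, at -0.0051, -0.039 and -0.0089. The levels of miR-100 (0.040, 0.077 and 0.11) and miR-99a (0.035, 0.038 and 0.098) were higher in 3 of 3 pairs, and those of the other members in 1 of 3. Such runs were common for levels, since 18.2% of the 181 miRNAs tested were higher and 23.8% lower in every pair. The share among ratios of other miRNAs was not computed. A two-sided exact sign-flip test over 3 pairs cannot go below p = 0.25, the value of each difference that kept its sign. With the replicate number as a block, limma gave an adjusted p of 0.440 for miR-100 and 0.604 for miR-99a. In the log2 table that the authors deposited, miR-100 over let-7a was instead lower after NMDA than in control. The difference there was -0.10 (two-sided exact permutation p = 0.1, without pairing).

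Over all 9 arrays the members differed in how much they varied. The SD of the log2 level was 0.078 for miR-99a, 0.081 for miR-125b-5p and 0.091 for miR-99b, at places 27, 33 and 45 from the smallest among 156 miRNAs. For miR-100 it was 0.135, at place 86, and for miR-125a-5p 0.166, at place 110. The median over the 5 members was 0.091 beside 0.126 for all 156. Within groups the medians were 0.092 and 0.131. miR-132 stood at place 149 with 0.365.

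**Figure D4:**
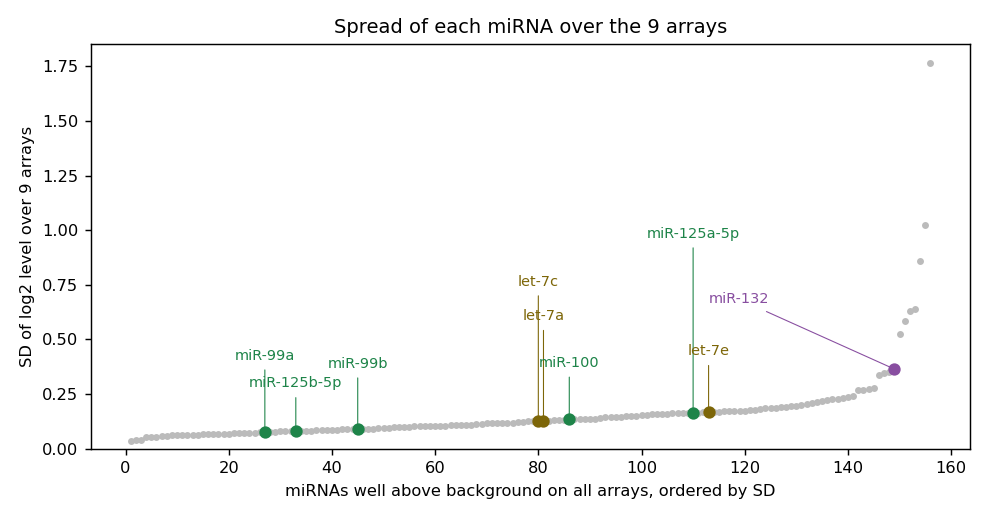
SD of the log2 level over the 9 arrays for each of 156 miRNAs, ordered from smallest to largest. Green points are the members, brown points the let-7 miRNAs of their clusters and the purple point miR-132. miR-99a, miR-125b-5p and miR-99b lie at places 27, 33 and 45, and miR-100 and miR-125a-5p at places 86 and 110.

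The slides were compared next, with group and slide as terms of 1 limma fit over the 156 miRNAs. A slide difference passed for 26.3% of all miRNAs (15.4% higher and 10.9% lower on slide 2) and for 0 of 5 members. The log2 difference of slide 2 from slide 1 was 0.13 for miR-125b-5p (adjusted p = 0.0864) and 0.10 for miR-99a (0.201), whereas miR-100 had -0.17 (0.127), and miR-125a-5p and miR-99b had -0.14 (0.340) and -0.090 (0.295). Of the let-7 neighbours, let-7e and let-7a were higher on slide 2 by 0.30 and 0.22 (limma adjusted p = 0.0148 and 0.0245). let-7c was higher by 0.19 but did not pass (limma adjusted p = 0.0802). Some ratios that join the 2 sets differed between slides without overlap, and others overlapped. miR-125a-5p over let-7e had a mean log2 ratio of -0.83 ± 0.095 on slide 1 (SD, n = 5) and -1.25 ± 0.12 on slide 2 (SD, n = 4). miR-99b over let-7e had -3.35 ± 0.12 and -3.72 ± 0.12. Even the near copies miR-99a and miR-100 were separated, with a ratio of 1.62 ± 0.023 on slide 1 and 1.90 ± 0.085 on slide 2. These slide differences of -0.42, -0.38 and 0.28 were larger in size than all 33 differences between treatment groups, but they were picked for their separated slides. miR-99a over miR-99b was the only other measured ratio with separated slides, at 0.20. The rest overlapped, and their differences ran in size from -0.0035 for miR-99a over miR-125b-5p to -0.38 for miR-100 over let-7a. Among them, miR-99b over miR-125a-5p had 0.045, miR-125b-5p over let-7c -0.063 and miR-99a over let-7c -0.067. How often slides separate the ratios of other miRNAs was not computed.

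Each of the 5 detected members has 2 probes with 10 spots each. The dimmer probe was also well above background on all 9 arrays for every one of them. Read from it, the log2 change after NMDA was -0.14 for miR-125a-5p, -0.084 for miR-125b-5p, 0.053 for miR-99a, -0.0090 for miR-99b and 0.10 for miR-100. After bicuculline the dimmer probe gave -0.24, -0.19, -0.056, -0.18 and -0.058 in the same order, so that miR-99a changed sign between its probes. For the other members the 2 probes gave the same sign after bicuculline, and after NMDA miR-125b-5p differed in sign. Bicuculline had more arrays on slide 2 than control, so slide enters the dimmer-probe values. For miR-125a-5p that probe read 72.1% after bicuculline and 78.1 and 85.8% in control on slide 1. On slide 2 it read 57.3 and 53.1% after bicuculline and 54.4% in control.

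The 2 probes parted by slide. The log2 ratio of the dimmer to the brighter probe was lower on slide 2 for 5 of 5 members, with differences of -0.33 for miR-125a-5p, -0.41 for miR-125b-5p, -0.30 for miR-99a, -0.42 for miR-99b and -0.14 for miR-100. For miR-99a, miR-99b and miR-100 the slides did not overlap. Among all 106 miRNAs with 2 probes detected on every array, 91.5% were lower on slide 2, with a median shift of -0.13, and 35.8% had no overlap. For miR-125b-5p the dimmer probe ranged from 379 to 483% on slide 1 and from 299 to 435% on slide 2, while the brighter probe ranged from 3214 to 3512% and from 3375 to 3866%. In the authors' own log2 table, miR-125b-5p was 12.73 to 12.88 on slide 1 and 12.12 to 12.49 on slide 2, a direction opposite to that of its brighter probe. The slides were also read with different versions of the scanner software, and the part of either in these values was not tested.

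**Figure D5:**
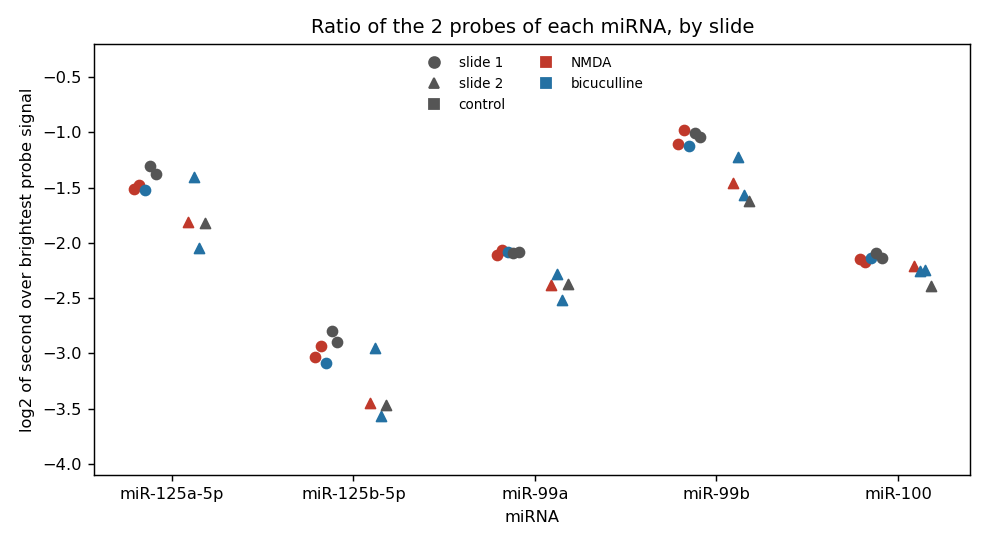
Log2 of the signal of the dimmer over the brighter probe for the 5 detected members, with 1 point per array. Circles are slide 1, triangles slide 2, and colours are the treatment groups. Triangles lie lower on average for all 5 members, and without overlap for miR-99a, miR-99b and miR-100.

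The miRNAs whose pattern over the 9 arrays was most like each member were found from the SD of their log2 ratio, a description over 9 arrays that share slides. For miR-125b-5p these were miR-107 (SD 0.047) and miR-103 (0.053), and for miR-99a miR-15b (0.034) and miR-140* (0.044). miR-99b was most like miR-127 (0.042) and miR-16 (0.044), and miR-100 most like miR-93 (0.059) and miR-30b (0.063). miR-125a-5p had no partner that close, with miR-672 at 0.108 and miR-20a at 0.117. None of these 10 is a member or a let-7 miRNA of the clusters. Some of those stood not far behind and others far behind. Among 155 other miRNAs, the cluster neighbour miR-99b stood at place 9 for miR-125a-5p (SD 0.146), and the cluster neighbour miR-125b-5p at place 12 for miR-99a (SD 0.076). The let-7 neighbours were further off, with let-7e at place 113 for miR-125a-5p and let-7c at place 63 for miR-99a. For miR-125b-5p, miR-99a stood at place 21, let-7c and let-7a at places 27 and 29, and the cluster neighbour miR-100 at place 107. Its seed partner miR-125a-5p stood at place 112. For miR-99b the cluster neighbours miR-125a-5p and let-7e stood at places 76 and 131. For miR-100, miR-99b stood at place 10, miR-99a at place 57 and the cluster neighbours miR-125b-5p and let-7a at places 84 and 124.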

How the data were processed

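The authors deposited the scanner output of 9 one-colour arrays (Agilent miRNA Release 12.0 per the methods), in which each spot intensity had been background-subtracted and detrended by Agilent Feature Extraction 10.7.1.1 or 10.7.3.1 and not normalized between arrays. They also deposited a table of processed log2 values, whose normalization and centring are not given in the sources used here. Its columns held 1 value per miRNA and array, and it was used as an alternative. Over the 156 miRNAs detected on all arrays, the slope of its values on the log2 levels used here was 0.595 to 0.660 per array. Sizes of change in that table and here are therefore not on the same scale. Of 13715 spots per array 13000 were not controls, forming 1857 probes for 650 miRNAs.

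Spots carrying an outlier flag (3278 over the 9 arrays) were left out and spots of a probe averaged. A probe was detected if the scanner marked 50% or more of its spots as well above background. The scale of an array was the 75th percentile of the 265 probes detected on all arrays (416 to 645 intensity units). Signals relative to it were raised to a floor of 7.94% and log2-transformed, and the brightest probe stood for a miRNA. Those detected on all 3 arrays of 1 group or both were tested with limma 3.58.1 in R 4.3.3, two-sided, without covariates, with Benjamini-Hochberg adjustment over all tested and a threshold of 0.05. Ratios were tested by exact permutation. With 3 arrays a group, their number sets the precision.

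The members and lists were chosen with earlier results of these data known. miRNAs named are the members, their other strands, seed relatives and let-7 neighbours, miR-132 and miR-212, cell type markers, and for each detected member the 2 miRNAs with the smallest SD of their log2 ratio to it. The fit was also tested on simulated data with known changes. Those changes were larger than any seen for a member, and the simulated noise had no slide or pair effects. That test therefore does not show how well small changes would be found here. Sequences come from RefSeq, GRCm38.p6. That build differs from the one in the array headers, whose coordinates were not used.

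Deviations from group means over 156 miRNAs correlated between same-numbered arrays at 0.36, 0.76 and 0.63 for NMDA and control, all on 1 slide, which pairs them by the rule used here (every pair over 0.1). For bicuculline and control they were 0.59, 0.08 and 0.72, and for NMDA and bicuculline 0.62, -0.03 and 0.72, with the middle pairs on different slides. Alternatives were other scalings, summaries, filters and backgrounds, the authors' table, the methods' t-test, blocks for replicate and slide, each slide alone and leaving out each array. The dimmer probe, slide as a term of the fit and differences within same-numbered pairs were added after seeing the data.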

Additional observations from a re-analysis of the deposited data

Results flagged for a closer look

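The scanner files also hold a total gene signal, which the comparisons above do not use. For miR-125a-3p it was 4467 on NMDA replicate 2, although its 4 probes summed to 23.4 there and its brightest probe reached 5.30% of scale, under the floor. The result was singled out as a signal in data outside the comparisons. On 6 arrays the column held 0.1 for this miRNA, and on control replicate 3 and NMDA replicate 3 it held 6.62 and 25.7. For the other 5 members the column equalled the sum of the probes, with ratios of 1.00 on every array. Over all arrays, 262 of 1941 miRNA values exceeded 2 times their probe sum. The 1941 were counted as detected by a criterion other than the well-above-background rule of the comparisons. The cause was not tested.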

How the results depend on the processing

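In 315 alternatives over the 15 member results, 0 passed the adjusted threshold. This includes the replicate block (0 members called in each comparison) and leaving out any array. The lowest adjusted p over these limma and t-test alternatives was 0.0911, for miR-99b in NMDA against control, where log2 changes reached -0.22. Changes in sign are between values that did not pass, and some were not small. For miR-99b in NMDA against bicuculline the alternatives ran from -0.14 to 0.26. For NMDA against control, log2 changes turned sign to 0.018 for miR-125a-5p and 0.0090 for miR-99b without scaling, to -0.0075 (mean of all probes) and -0.034 (median scaling) for miR-125b-5p, and to -0.013 for miR-100 in the authors' table. For bicuculline against control, the total gene signal gave 0.13 for miR-100, 0.058 for miR-125a-5p, 0.12 for miR-125b-5p and 0.054 for miR-99b, median scaling 0.0057 for miR-125b-5p, no scaling -0.094 for miR-99a and slide as a block 6.8e-04 for miR-100. For NMDA against bicuculline, the total gene signal gave -0.024 for miR-100, -0.10 for miR-125a-5p, -0.10 for miR-125b-5p, -0.14 for miR-99a and -0.072 for miR-99b. Median scaling gave -0.045 for miR-125a-5p, -0.039 for miR-125b-5p, -0.086 for miR-99a and -0.039 for miR-99b, and quantile normalization -0.063 for miR-99a and -0.14 for miR-99b. Slide as a block gave -0.010 for miR-125a-5p, the scale over all probes -0.0030 for miR-99a, and normexp and the authors' table -0.0068 and -0.037 for miR-99b. That scale was read relative to its median change, since it moved the median of all miRNAs by -0.43 for NMDA against control and -0.47 for NMDA against bicuculline. Before that centring NMDA against bicuculline had 140 calls (15 higher, the rest lower), after it 18 (17 higher, 1 lower). Quantile normalization moved it by -0.14 and -0.12, no scaling by -0.17 for bicuculline against control and 0.20 for NMDA against bicuculline, and the total gene signal by 0.13 for bicuculline against control.

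Leaving out 1 array at a time gave, for NMDA against control, -0.0026 to 0.14 for miR-100, -0.080 to 0.028 for miR-125a-5p, -0.071 to 0.047 for miR-125b-5p and -0.11 to 0.016 for miR-99b. For bicuculline it gave -0.13 to 0.032 for miR-100 and -0.19 to 0.078 for miR-125a-5p. For NMDA against bicuculline it gave -0.12 to 0.15 for miR-125a-5p, -0.025 to 0.092 for miR-125b-5p, -0.061 to 0.053 for miR-99a and -0.0045 to 0.084 for miR-99b. Counts over all miRNAs moved more. For NMDA against control, 15 calls became 5 without a filter, 26 under quantile normalization (13 higher, 13 lower), 5 with the total gene signal and 3 among miRNAs well above background on all 9 arrays. For NMDA against bicuculline, 16 became 8, 28, 7 and 3 in that order and 10 by the methods' t-test. For bicuculline the single call, miR-212, was lost (0 calls) under the mean of all probes, the methods' t-test, no filter, quantile normalization, the total gene signal, detection on all 9 arrays and without bicuculline replicate 1 or 2 (leaving out 1 array gave 0 to 1), and became 2 with the replicate block. Of the ratio comparisons, 6 had no overlap in the authors' values, against 1 here. For miR-100 over let-7a the authors' values gave -0.10 for NMDA against control and -0.12 for NMDA against bicuculline. The values here were 0.15 and 0.17. The cause was not tested, except that fewer or more miRNAs enter the filters by construction. The arrays had 162 to 221 miRNAs over background, which limits what can be read for miR-125a-3p and the other strands.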
